A study of Mus musculus with 8 samples.

Results

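Oxidative phosphorylation is carried out by 5 protein complexes of the mitochondrial inner membrane, and the genes described here encode their subunits in the nucleus. They were taken by symbol from the deposited table: NADH dehydrogenase subunits (*Nduf* with a, b, c, s or v and a digit), succinate dehydrogenase subunits (*Sdha* to *Sdhd*), *Uqcr* genes and *Cyc1*, *Cox4* to *Cox8* genes, and *Atp5* genes, without pseudogenes. This gave 85 of the 23427 genes in the table, 35 of complex I, 4 of complex II, 9 of complex III, 20 of complex IV and 17 of complex V. *Ndufa4* and *Ndufa4l2* were counted with complex IV, where the protein is now placed. *Cox7a2l*, *Atp5s* and *Atp5sl* match by symbol but are not regular parts of the enzyme that their name gives. The subunits encoded in mitochondrial DNA were not analysed here.

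The cells were oligodendrocyte precursor cells (OPCs), the dividing progenitors of the myelin-forming oligodendrocytes (OLs). They came from wild-type C57BL/6J mice. Cortices of 3 pups (postnatal day 7) were pooled, microglia and endothelial cells were panned away, and OPCs were captured on an antibody against PDGFRα, a receptor on their surface. All groups share that origin and differ in the time since growth factors were withdrawn and the thyroid hormone T3 was added, which is Day 0, Day 1, Day 2 or Day 3. Each day had 2 libraries, described as independent replicates, and the value of each gene is its FPKM (the fragments of a gene divided by its transcript length in kilobases and by the depth of the library).

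Complex I takes electrons from NADH and complex II takes them from succinate in the citric acid cycle. Both pass them through ubiquinone to complex III and by cytochrome c to complex IV, which reduces oxygen. The proton gradient built on the way drives complex V, the ATP synthase. In the brain, OPCs and young OLs are known to rely on mitochondrial ATP, and mature OLs are known to use glycolysis heavily.

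The cells followed their labels. All 6 OL markers, such as *Mbp* and *Mog*, rose from Day 0 to Day 3, and 4 of 5 OPC markers fell. The summed FPKM of 8 astrocyte markers was 191 and 380.2 at Day 0 against 414 and 1062 at Day 3, and *S100b* passed the test among them. With the replicate as a block *Gfap* (adjusted p = 0.000126, limma) and *Aqp4* (adjusted p = 0.000735) passed too. *Slc1a3* and *Aldh1l1* had log2 fold changes of -0.45 and -0.10 (adjusted p = 0.62 and 0.958, limma). *Gja1*, *Aldoc* and *Slc1a2* had values above 0, without a call in either fit. Among 3 neuronal markers tested, *Tubb3* rose, with 60.2 and 20.8 FPKM at Day 0 against 231 and 113 at Day 3, and made up most of the summed level of that list (64.4 and 31.4 FPKM at Day 0, 233 and 115 at Day 3). *Snap25* and *Syt1* had log2 fold changes of -1.80 and -0.50 (adjusted p = 0.0618 and 0.274, limma), and *Snap25* passed the test with the block (adjusted p = 0.0473). The microglial and endothelial lists summed to at most 2.51 and 3.31 FPKM in any library. Of the 6 microglial markers, 4 (*Aif1*, *Csf1r*, *Cx3cr1* and *Tmem119*) were at 0 in every library, and so were *Cldn5* for endothelium and *Rgs5* for mural cells. The astrocyte and neuronal genes changed over the same days as the subunit genes, and their part in the results was not tested. In bulk RNA, fewer cells of a type and less RNA per cell cannot be told apart. An estimate of depth, taken from how far apart the lowest FPKM values lie, gave about 950000 to 1540000 fragments per library, so these were shallow libraries.

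The subunit genes were among the well expressed genes of these cells. Over the 8 libraries the median FPKM of the tested members was 73.4 in complex I, 86.3 in complex II, 107 in complex III, 202 in complex IV and 153 in complex V, against 11.1 over all 12208 genes tested. FPKM corrects for transcript length, so these levels can be set beside each other. Of the 85 members, 79 reached an FPKM of 1 in 2 or more libraries and entered the test. The other members all belong to complex IV. *Cox6a2*, *Cox7b2*, *Cox8b* and *Cox8c* were at 0 in every library, while *Cox4i2* (0.897 FPKM) and *Ndufa4l2* (0.676 FPKM) had a value above 0 in replicate 1 of Day 0 alone.

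The share of all FPKM that went to the 85 genes was slightly lower at the end. In what follows, where a day has a pair of values, replicate 1 stands before replicate 2. The members together took 2.71% and 2.79% of the summed FPKM at Day 0, 2.58% and 2.61% at Day 1, 2.46% and 2.65% at Day 2, and 2.50% and 2.40% at Day 3. Both libraries of Day 3 lay below both of Day 0, and the ratio of the day means was 0.892. Complex V gave the lowest such ratio: it took 0.836% and 0.875% at Day 0, and between 0.713% and 0.789% in the 6 later libraries, which did not reach the Day 0 values. Complex II took 0.0903% and 0.0925% at Day 0 and 0.0808% and 0.0785% at Day 3. In complexes I, II, III and IV, too, both libraries of Day 3 lay below both of Day 0. The Day 3 over Day 0 ratios were 0.855 for complex V, 0.871 for complex II, 0.899 for complex IV, 0.915 for complex I and 0.934 for complex III. The shares carry no test, since an exact two-sided permutation test of 2 libraries against 2 cannot go below p = 0.333.

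**Figure D1:**
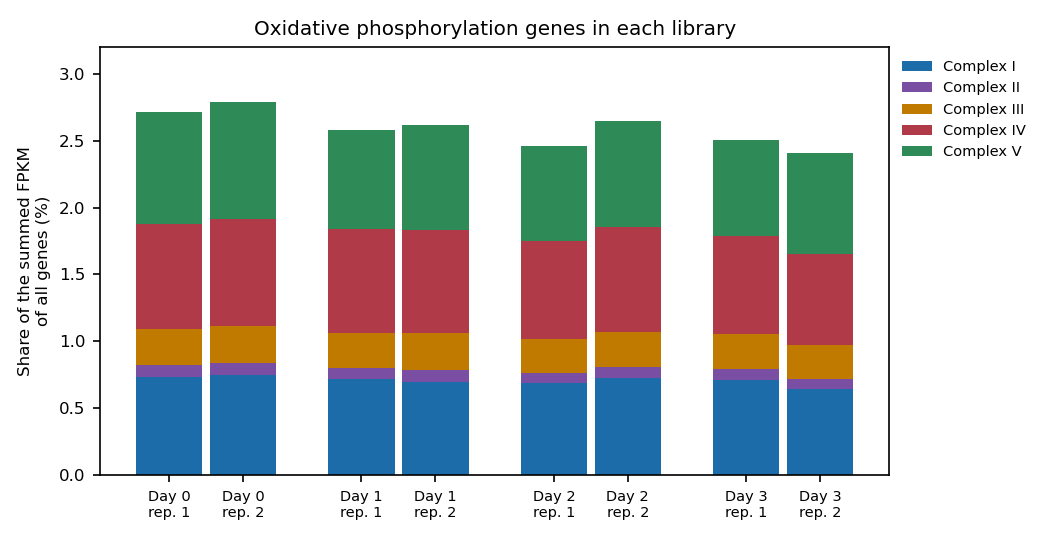
Share of the summed FPKM of all genes (%, vertical axis) taken by the members of each complex (colours) in each of the 8 libraries (horizontal axis, 2 replicates per day). The bars of Day 3 end at 2.50% and 2.40%, below those of Day 0 at 2.71% and 2.79%, and complexes I, IV and V make up most of each bar.

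Gene by gene, limma's test called no member higher at Day 3 than at Day 0 in the FPKM as deposited. It called 27 of 79 (34.2%) lower, at an adjusted p under 0.05. Counts of lower or higher members are counts of such calls where no other threshold is given. At an unadjusted p under 0.05, 1 member was higher and 38 were lower. Over all genes 12% were called higher and 26.3% lower, so the members' share of lower calls lay near that background. The 27 fall into 13 of 35 in complex I, 1 of 4 in complex II, 3 of 9 in complex III, 5 of 14 in complex IV and 5 of 17 in complex V. The median log2 fold change of the members was -0.36 beside -0.31 over all genes, and 43 of the 79 lay below the median of all genes. Both Day 3 libraries lay below both Day 0 libraries in 51 members (64.6%), against 48.6% of all genes, and above them in 6 (7.59%), against 22.8% of all genes.

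The direction of these changes depends on how the libraries are scaled. FPKM of all genes summed to 402460 and 406515 at Day 0 and to 366695 and 359540 at Day 3, while the OL markers grew from 1074 and 787 to 18963 and 26846 FPKM. A scaling by the median ratio to the mean library moved the median of all genes from -0.31 to -0.04 and that of the members from -0.36 to -0.04. Under it 3 members were lower (*Ndufa5*, *Ndufs3* and *Cox6b2*, against 16.8% of all genes) and 5 were higher (against 17.5%), such as *Uqcrfs1*, *Uqcr11* and *Atp5f1*. Quantile normalization left the members further below all genes, with a median of -0.25 beside -0.03. It called 19 members lower (24.1%, against 18.0% of all genes) and 1 higher (against 2070 of the 12208 genes). Where a member called between Day 0 and Day 3 is given with its log2 fold change, that value less the median of all genes is therefore given too, as the change against all genes. Leaving out a library moved the count of 27 to 13 (without replicate 1 of Day 0), to 8 (without replicate 2 of Day 0) or to 17 (without replicate 2 of Day 3), where 14.7%, 14.8% and 17.5% of all genes were lower.

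**Figure D2:**
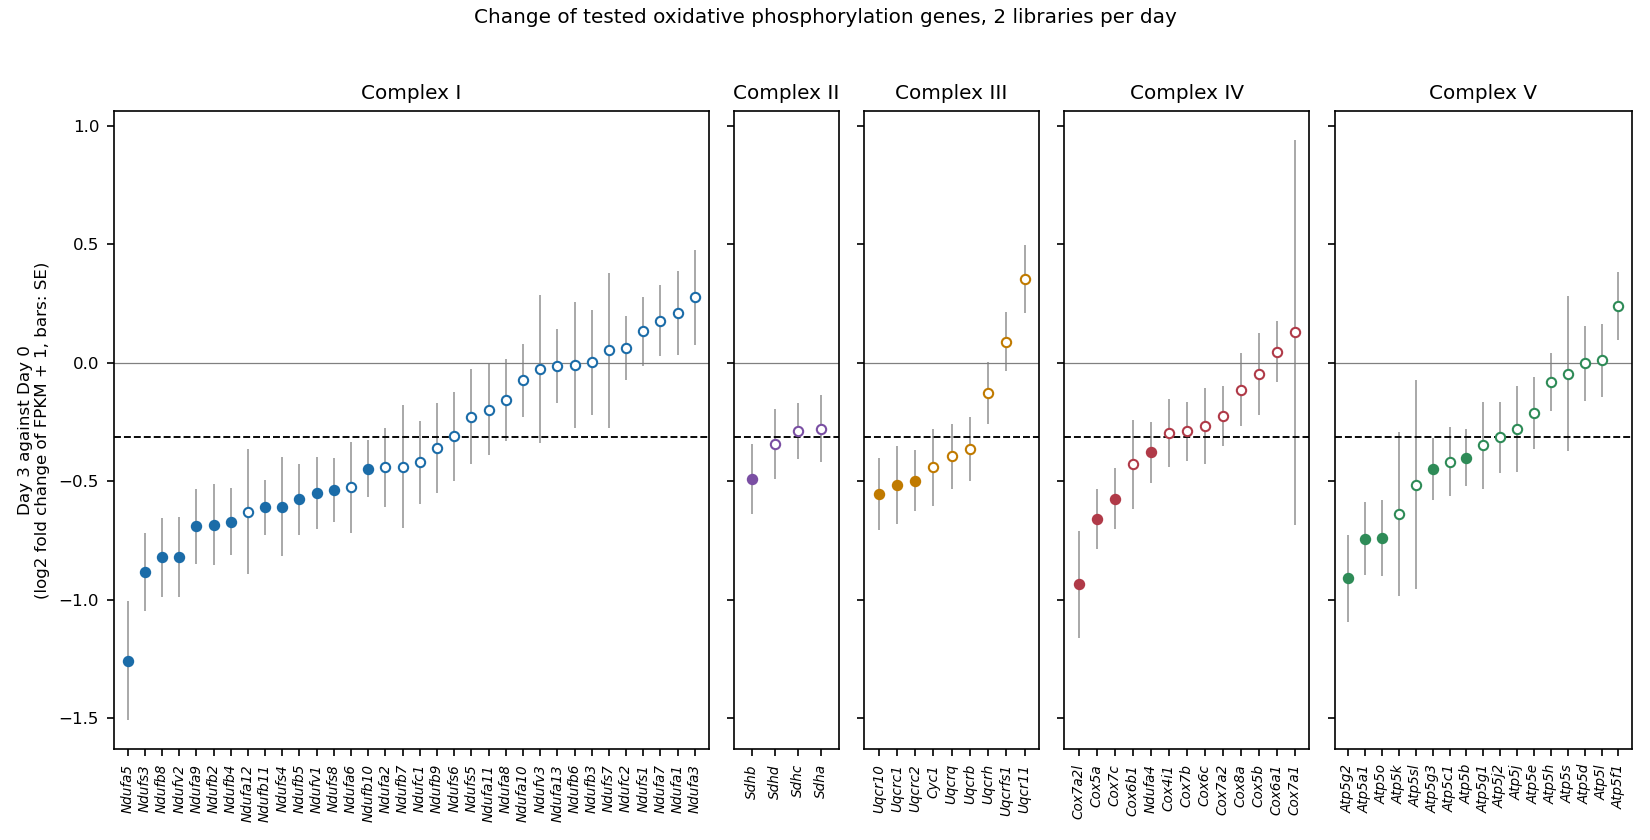
Log2 fold change of FPKM + 1 from Day 0 to Day 3 (vertical axis, bars are standard errors, 2 libraries per day) for 77 of the 79 tested members, ordered by size within each complex. Filled points are 26 of the 27 members with an adjusted p under 0.05, all below 0, and the dashed line at -0.31 is the median of all genes tested. *Cox6b2*, called lower, is left out because no fold change is given against a day listed at 0. Its fitted value still enters the medians. Of the members that were not called, 1 is not drawn.

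The complexes could not be put in an order. The median log2 fold change was -0.42 in complex I, -0.40 in complex III, -0.35 in complex V, -0.32 in complex II and -0.29 in complex IV. Leaving out each library in turn moved complex I between -0.44 and -0.27 and complex IV between -0.36 and -0.23, so the ranges overlapped. The replicates gave different sizes: in replicate 1 the medians ran from -0.30 (complex II) to -0.21 (complex IV), and in replicate 2 from -0.49 (complex III) to -0.38 (complexes II and V). With the median ratio scaling, complex IV was at 0.02 and the other complexes between -0.11 and -0.0033, beside -0.04 for all genes.

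**Figure D3:**
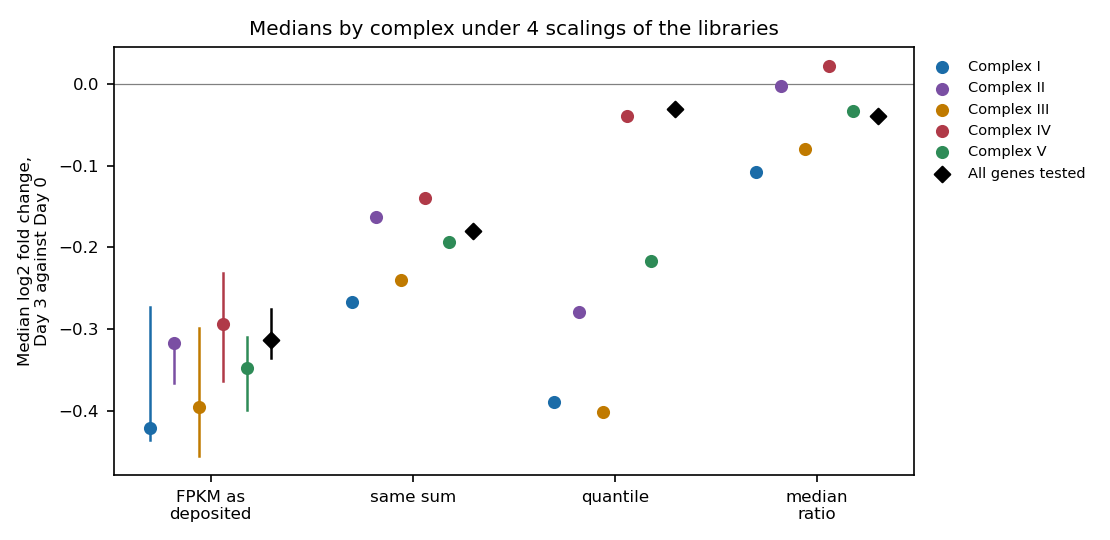
Median log2 fold change from Day 0 to Day 3 (vertical axis) of the members of each complex (circles) and of all genes tested (diamond), for the FPKM as deposited and under 3 other scalings (horizontal axis). Lines on the left show the range when each library was left out in turn. The medians lie between -0.42 and -0.29 as deposited and between -0.11 and 0.02 with the median ratio scaling.

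Complex I has the most subunits. They form a module that oxidises NADH (N), a module that reduces ubiquinone (Q) and a membrane arm that pumps protons, and the assignment used here is from textbook knowledge. Of the Q module members 3 of 5 were lower, of the N module members 3 of 7, and of the other 23 members 7, where 26.3% of all genes were lower. Among the 7 core subunits encoded in the nucleus, which carry the flavin and the iron-sulphur clusters or lie next to them, 4 were lower, and among the 28 accessory subunits 9 (32.1%). With the median ratio scaling 2 Q module members, 0 of the N module and 0 of the other 23 were lower, which made 1 core and 1 accessory subunit. The median log2 fold change was -0.54 for the core and -0.39 for the accessory subunits.

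*Ndufa5* (chr6:24518666-24528013, minus strand), an accessory subunit of the arm that reaches into the matrix, had the largest fall in complex I. It had 98.6 and 77.2 FPKM at Day 0, 57.9 and 39.9 at Day 1, 64.3 and 65.7 at Day 2, and 45.1 and 28.5 at Day 3. Day 3 was lower than every earlier library except replicate 2 of Day 1, which lay between its replicates. The log2 fold change was -1.26 with an SE of 0.25 (adjusted p = 0.00544, limma), and its distance to the all-gene median was -0.94. In the shallowest library this gene rested on about 16.1 fragments.

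*Ndufs3* (chr2:90894634-90904827, minus strand), a core subunit of the Q module, fell in small steps. Its FPKM were 62.4 and 59.8 at Day 0, 47.7 and 56.6 at Day 1, 41.9 and 38.4 at Day 2, and 37.1 and 28.9 at Day 3. No library of a later day reached the lower value of Day 0. The log2 fold change was -0.88 with an SE of 0.16 (-0.57 against all genes, adjusted p = 0.00397, limma), and it stayed past the threshold in every alternative run. About 22.8% of its 31-base stretches also occur in transcripts of other annotated genes, so some of its fragments could belong elsewhere.

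*Ndufv2*, a core iron-sulphur subunit of the N module, had 88.6 and 105 FPKM at Day 0 and 52.9 and 55.3 at Day 3 (log2 fold change -0.82, SE 0.17, -0.51 against all genes, adjusted p = 0.00599, limma). *Ndufb8*, an accessory subunit of the membrane arm, had 126 and 141 FPKM at Day 0 and 78.7 and 71.6 at Day 3 (log2 fold change -0.82, SE 0.17, -0.51 against all genes, adjusted p = 0.00575, limma). Neither overlapped between the days.

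The highest and the lowest member of complex I were not called. *Ndufa3*, an accessory subunit, averaged 159.8 FPKM over the libraries, with 136 and 170.5 at Day 0 and 215 and 159 at Day 3. *Ndufa11*, an accessory subunit of the membrane arm, averaged 18.8 FPKM, with 21.6 and 17.8 at Day 0 and 18.3 and 15.7 at Day 3. In both the days overlapped and the test was not passed (adjusted p = 0.305 and 0.442, limma). *Ndufa11* rested on 8.12 to 18.1 fragments per library, so that only a large difference was detectable at this depth.

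Complex II was the smallest and most even group. *Sdhb*, its iron-sulphur subunit (chr4:140961203-140979193, plus strand), had 103 and 102 FPKM at Day 0, 99.5 and 128 at Day 1, 92.6 and 91.0 at Day 2, and 76.0 and 69.1 at Day 3. It fell by 0.49 on the log2 scale with an SE of 0.15 (-0.18 against all genes, adjusted p = 0.0305, limma), and only at Day 3 did both libraries lie below all others. *Sdha*, the flavoprotein that oxidises succinate, had 83.0 and 99.5 FPKM at Day 0, 68.3 and 68.0 at Day 2, and 72.8 and 76.7 at Day 3. From Day 0 to Day 3 its log2 fold change was -0.28 (adjusted p = 0.152, limma). Like *Sdha*, the membrane anchors were lowest at Day 2. *Sdhc* went from 113 and 119 FPKM at Day 0 to 80.8 and 81.5 at Day 2 and to 99.5 and 90.3 at Day 3. *Sdhd* went from 64.4 and 55.8 to 36.4 and 44.4 and to 47.8 and 46.3. Neither anchor passed the test from Day 0 to Day 3 (adjusted p = 0.0868 for *Sdhc* and 0.102 for *Sdhd*, limma). All 4 subunits were without overlap between Day 0 and Day 3 (48.6% of all genes lay lower in this way), and their log2 fold changes of -0.49 to -0.28 lay around the median of all genes. With the median ratio scaling *Sdha* was at 0.035 and *Sdhc* at 0.025, so their sign turned.

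In complex III the 3 members that fell included both core proteins. *Uqcrc2* (chr7:120635176-120659524, plus strand) had 76.5 and 77.5 FPKM at Day 0, 61.9 and 70.2 at Day 1, 59.3 and 65.0 at Day 2, and 53.6 and 54.9 at Day 3. Its replicates were close and its log2 fold change was -0.50 with an SE of 0.13 (-0.18 against all genes, adjusted p = 0.0167, limma). *Uqcrc1* had 90.5 and 125 FPKM at Day 0 and 71.4 and 76.9 at Day 3 (log2 fold change -0.52, SE 0.16, -0.20 against all genes, adjusted p = 0.0385, limma), and *Uqcr10*, a small accessory subunit, had 148 and 128 against 102 and 85.2 (log2 fold change -0.55, SE 0.15, -0.24 against all genes, adjusted p = 0.0207, limma). None of these overlapped between the days.

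Other subunits of complex III lay on the other side of the median. *Uqcr11*, a small accessory subunit, had the highest log2 fold change of all members. Its FPKM were 119.6 and 105 at Day 0, 129 and 139.9 at Day 1, 113 and 127 at Day 2, and 156 and 132 at Day 3. The log2 fold change of 0.35 with an SE of 0.14 did not pass the test as deposited (adjusted p = 0.0843, limma) and was 0.67 relative to the median of all genes, where the median ratio scaling called it higher (adjusted p = 0.0094, limma). *Uqcrfs1*, the Rieske iron-sulphur protein and the lowest member of the complex, had 59.1 and 64.6 FPKM at Day 0 and 66.3 and 65.2 at Day 3. *Uqcrh*, the hinge protein and the highest, had 205 and 216 at Day 0 and 207 and 179.7 at Day 3 with overlapping days (adjusted p = 0.463, limma).

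Complex IV combined very high and very low members. *Cox4i1*, the ubiquitous form of its largest nuclear subunit, averaged 444 FPKM, with 467 and 549 at Day 0 and 433 and 390.4 at Day 3 (log2 fold change -0.30, adjusted p = 0.136, limma). *Cox7a1*, the form known from heart and skeletal muscle, lay at the other end with 0.891 FPKM on average, about 1 fragment in 3 libraries of replicate 2 and 0 in the rest.

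Among its accessory subunits, *Cox5a* (chr9:57521274-57532426, plus strand) had 155 and 172 FPKM at Day 0, 144 and 137 at Day 1, 145 and 131 at Day 2, and 109 and 98.0 at Day 3. Day 3 lay apart from all other libraries, and the log2 fold change was -0.66 with an SE of 0.13 (-0.35 against all genes, adjusted p = 0.00463, limma). *Cox7c* had 431 and 434 FPKM at Day 0 and 289 and 291 at Day 3, the closest pairs of replicates among the members that fell (log2 fold change -0.57, SE 0.13, -0.26 against all genes, adjusted p = 0.00921, limma). Quantile normalization put it at 0.012, and of its 31-base stretches 24.5% occur in other genes. *Ndufa4*, long counted with complex I, had 286 and 263 FPKM at Day 0 and 225 and 197 at Day 3 (log2 fold change -0.38, SE 0.13, -0.065 against all genes, adjusted p = 0.0462, limma).

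*Cox6b2* (chr7:4751792-4753094, minus strand), the form known from testis, was listed at 0 in both Day 3 libraries. Its FPKM were 3.78 and 5.92 at Day 0, 4.44 and 9.93 at Day 1, and 5.34 and 4.09 at Day 2. The fall from Day 0 passed the test (adjusted p = 0.00176, limma), but the gene rested on at most about 5.49 fragments in any library. No fold change is given against a day listed at 0. Against Day 2 the adjusted p was 0.0558 (limma), and 0.0318 with the replicate as a block. The common form *Cox6b1* took the other 96.5% to 98.9% of the pair's FPKM from Day 0 to Day 2.

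*Cox7a2l* (chr17:83501918-83517330, minus strand) encodes a relative of the Cox7a proteins that has been linked to supercomplexes of complexes III and IV. What the protein of this mouse strain does was not tested. *Cox7a2l* had 145 and 149 FPKM at Day 0, 149 and 95.6 at Day 1, 78.3 and 89.7 at Day 2, and 89.2 and 65.7 at Day 3. From Day 2 on every library lay below both of Day 0, and the replicates of Day 1 lay apart. The log2 fold change was -0.93 with an SE of 0.23 (-0.62 against all genes, adjusted p = 0.0124, limma), and 16.6% of its 31-base stretches occur elsewhere. The ubiquitous *Cox7a2* had 89.9 and 90.8 FPKM at Day 0 and 82.7 and 72.0 at Day 3 (log2 fold change -0.23, adjusted p = 0.192, limma). As a share of the family's FPKM, *Cox7a2l* went from 61.8% and 61.6% at Day 0 to 51.9% and 46.8% at Day 3, without overlap. *Cox6a1*, *Cox7b* and *Cox8a* took all, *Cox4i1* at least 99.81% and *Ndufa4* at least 99.76% of the FPKM of their isoform pairs or trios in every library.

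**Figure D4:**
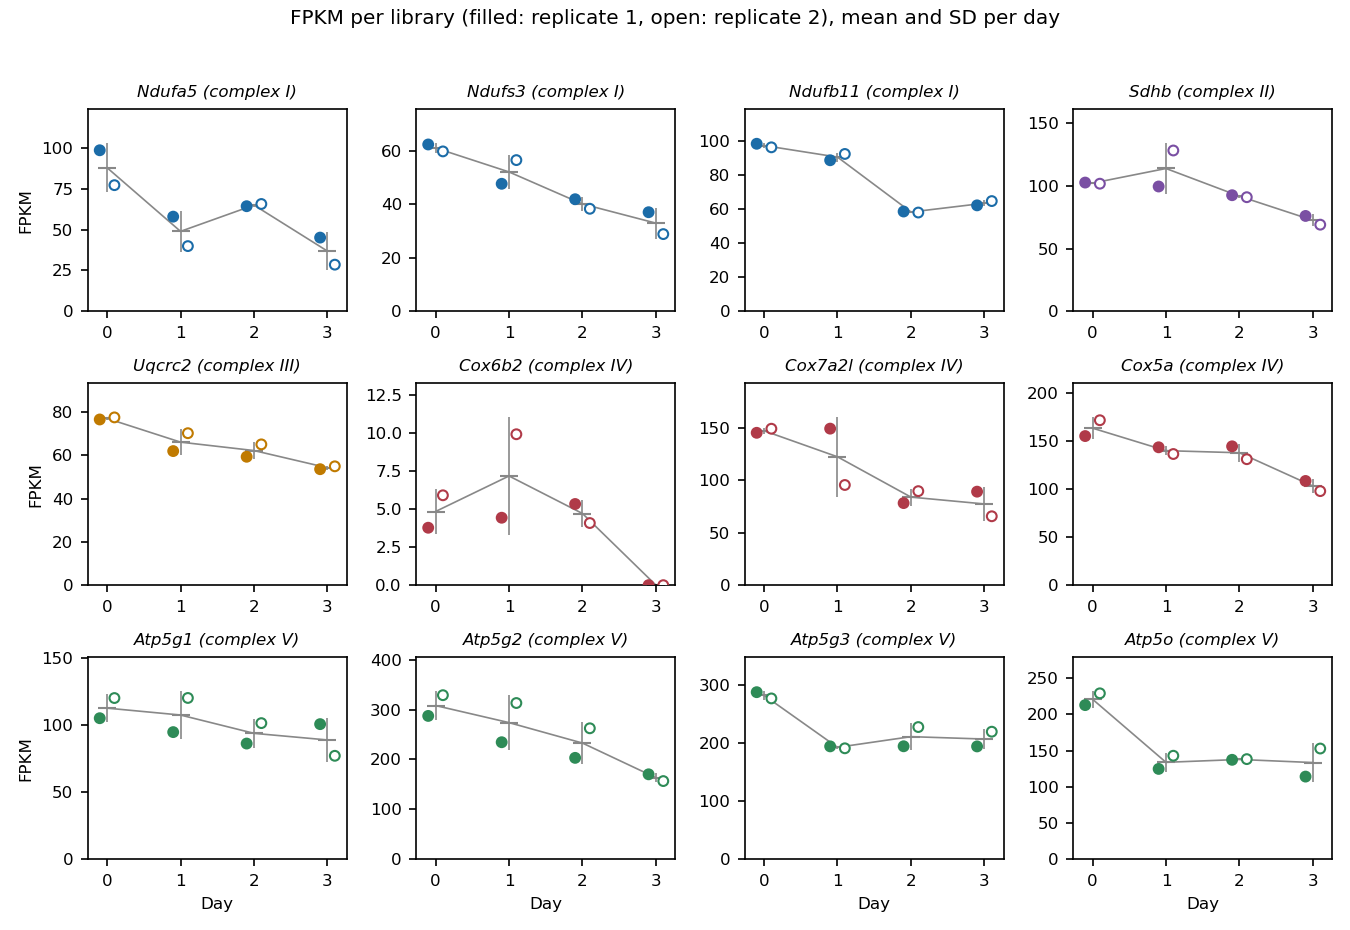
FPKM (vertical axes, from 0) of 12 members in each library by day of differentiation (horizontal axes). Filled points are replicate 1 and open points replicate 2, and the line and bars give the mean and SD of the 2 libraries of a day. *Ndufs3*, *Uqcrc2* and *Atp5g2* step down over the days, *Atp5g3* and *Atp5o* drop from Day 0 to Day 1 and stay level, *Ndufb11* drops from Day 1 to Day 2, and *Cox6b2* is at 0 at Day 3.

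Complex V consists of a catalytic head, a ring of subunit c in the membrane that turns, and stalks that hold the parts together. Of the head subunits 2 of 5 fell, of the subunit c genes 2 of 3, and of the stalk and membrane subunits 1 of 7, beside 26.3% of all genes, and with the median ratio scaling 0 of them were lower. *Atp5b*, the catalytic beta subunit, had the highest level of all members at 528 FPKM on average. It had 608 and 625 FPKM at Day 0 and 455 and 479 at Day 3, and fell by 0.40 on the log2 scale with an SE of 0.12 (-0.087 against all genes, adjusted p = 0.0317, limma), while quantile normalization turned the sign (0.26). *Atp5a1*, the alpha subunit, had 342 and 403 FPKM at Day 0, 279.7 and 294 at Day 1, 238 and 256 at Day 2, and 197 and 249 at Day 3 (log2 fold change -0.74, SE 0.15, -0.43 against all genes, adjusted p = 0.00652, limma). The head holds alpha and beta in equal numbers, and the ratio of their Day 3 to Day 0 means was 0.599 for *Atp5a1* and 0.757 for *Atp5b*.

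Subunit c is made from *Atp5g1*, *Atp5g2* and *Atp5g3*, which encode the same mature protein behind different targeting sequences. *Atp5g2* (chr15:102662864-102672352, minus strand) had 287 and 329 FPKM at Day 0, 234 and 313 at Day 1, 203 and 262 at Day 2, and 170.0 and 156 at Day 3. Day 3 lay below every other library, and the log2 fold change was -0.91 with an SE of 0.18 (-0.60 against all genes, adjusted p = 0.00586, limma). *Atp5g3* (chr2:73908447-73911326, minus strand) had 288 and 277 FPKM at Day 0, 195 and 191 at Day 1, 195 and 228 at Day 2, and 194 and 219.8 at Day 3 (log2 fold change -0.45, SE 0.13, -0.14 against all genes, adjusted p = 0.028, limma). *Atp5g3* was thus lower from Day 1 on with no further step, while *Atp5g2* was lowest at Day 3. *Atp5g1* had 105 and 120.3 FPKM at Day 0 and 101 and 77.2 at Day 3, which did not pass the test (adjusted p = 0.168, limma).

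The makeup of subunit c transcripts differed between the days. *Atp5g2* took 42.2% and 45.3% of the summed FPKM of the 3 genes at Day 0, 44.7% and 50.1% at Day 1, 41.9% and 44.3% at Day 2, and 36.5% and 34.5% at Day 3. *Atp5g3* took 42.3% and 38.2% at Day 0, 37.1% and 30.6% at Day 1, and 41.8% and 48.5% at Day 3, where the replicates of Day 0 and Day 3 overlapped. The sum of the 3 genes was 680 and 726 FPKM at Day 0 and 465 and 453 at Day 3. Of the 31-base stretches of *Atp5g2*, 40.2% also occur in other annotated genes, against 13.9% for *Atp5g1* and 0 for *Atp5g3*, so its level is the least certain of the 3.

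In the stalk, *Atp5o*, which encodes the subunit that ties the stalk to the head (OSCP), had 213 and 229 FPKM at Day 0, 125 and 143 at Day 1, 137 and 138 at Day 2, and 114 and 153 at Day 3. All later libraries lay below both of Day 0 (log2 fold change to Day 3 -0.74, SE 0.16, -0.42 against all genes, adjusted p = 0.00792, limma). *Atp5f1*, the stalk's subunit b, had 126 and 134 FPKM at Day 0 and 152 and 155 at Day 3, a log2 fold change of 0.24 with an SE of 0.14 (adjusted p = 0.219, limma) that the median ratio scaling called higher (adjusted p = 0.0301, limma). *Atp5s*, the lowest at 3.56 FPKM, had overlapping days. *Uqcr11* and *Atp5f1* are named because another scaling called them, which was seen in the data.

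The days in between showed where the larger steps lay. From Day 0 to Day 1, 3 of 79 members were lower (3.80%, against 7.56% of all genes) and 0 higher (against 5.04%): *Atp5o* (log2 fold change -0.72, adjusted p = 0.0219, limma), *Atp5g3* (-0.55, adjusted p = 0.0296) and *Ndufb4* of the complex I membrane arm (-0.54, adjusted p = 0.0431), which was chosen after its values were seen. The replicate block added *Ndufa5*. Without any of the 4 libraries of Day 0 and Day 1, 0 members were called. From Day 1 to Day 2, 1 member was lower (1.27%, against 1.73% of all genes) and 0 higher (against 2.16%).

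That member was *Ndufb11* (chrX:20615326-20617619, minus strand), an accessory subunit of the complex I membrane arm. It had 98.6 and 96.5 FPKM at Day 0, 88.9 and 92.6 at Day 1, 58.7 and 58.1 at Day 2, and 62.3 and 64.9 at Day 3. The replicates were close, and the values formed a high pair of days and a low pair of days. From Day 1 to Day 2 it fell by 0.63 on the log2 scale with an SE of 0.12 (adjusted p = 0.0298, limma), a call lost without any library of Days 0 to 2. Its exons overlap those of *Rbm10* on the opposite strand over 117 bases, and 19.1% of its 31-base stretches occur in another gene.

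From Day 2 to Day 3, limma called 0 of 79 members (against 0.295% of all genes). At an unadjusted p under 0.05 there were 10, without a share of all genes to set beside them. The members' median log2 fold change was -0.18 in the first interval, -0.10 in the second and -0.06 in the last, beside -0.07, -0.19 and -0.02 over all genes. Intervals share the day between them, and the Day 0 libraries are part of the comparison with Day 3 too.

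**Figure D5:**
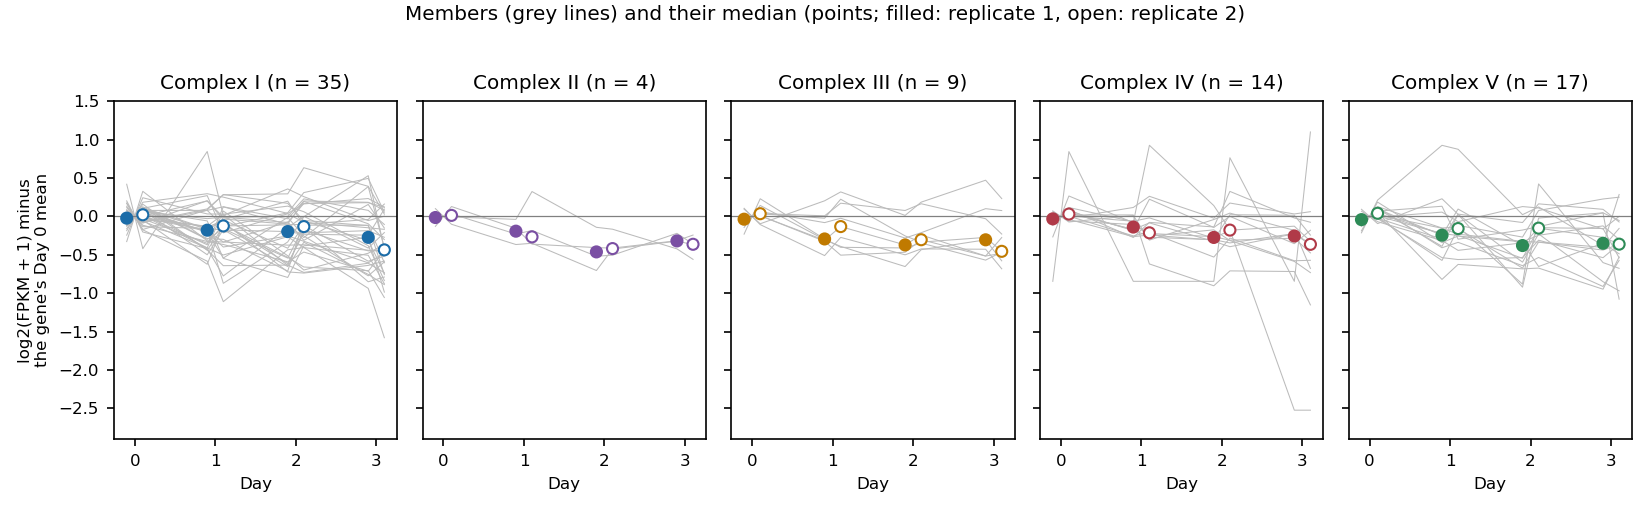
Log2(FPKM + 1) of each tested member (grey lines) relative to its own Day 0 mean, by day (horizontal axis) and complex (panels), with the median of the complex in each library (points, filled for replicate 1 and open for replicate 2). The medians of all later libraries lie below 0 in each complex, and single members range from the fall of *Cox6b2* to 0 at Day 3 to members above their Day 0 level.

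The replicates were compared as well. In the fit with the replicate number as a block, 0 members were called between replicate 2 and replicate 1 (limma, against 1.05% of all genes). At an unadjusted p under 0.05 there were 5, again without a share of all genes. The astrocyte gene sum was higher in replicate 2 on every day, and the neuronal sum was higher in replicate 1. *S100b* of the astrocyte list was lower in replicate 2, by -1.02 on the log2 scale (adjusted p = 0.0184, limma). The block also called *Ndufa6* (adjusted p = 0.0371) and *Atp5c1* (adjusted p = 0.0258, limma) lower from Day 0 to Day 3 and no longer *Ndufs4* (adjusted p = 0.05003).

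Genes around the complexes were counted in the same test from Day 0 to Day 3, where 26.3% of all genes were lower and 12% higher, with a median of -0.31. Of 39 genes tested from a list of assembly factors, 7 fell and 1 rose, with a median log2 fold change of -0.22. Among the 7 was *Atpif1*, which encodes an inhibitor of complex V and not an assembly factor (log2 fold change -1.15, adjusted p = 0.00048, limma). *Ndufaf6*, needed to build complex I, fell by 1.67 on the log2 scale (adjusted p = 0.00465, limma) and *Pet100*, needed to build complex IV, rose by 0.73 (adjusted p = 0.0386). Of 11 carriers, channels and electron transfer proteins, 6 fell and 0 rose (median -0.42). Among the 6 was *Ndufab1* (log2 fold change -0.76, adjusted p = 0.0064, limma), also a complex I subunit, which the symbols used here did not match. The largest fall was that of *Slc25a5*, an ADP/ATP exchanger of the inner membrane, with 417 and 448 FPKM at Day 0 and 143 and 191 at Day 3 (log2 fold change -1.38, adjusted p = 0.000522, limma).

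Of 23 genes of the citric acid cycle and pyruvate entry, 7 fell and 3 rose (median -0.23). *Suclg2*, a succinyl-CoA ligase subunit, fell by 1.82 on the log2 scale (adjusted p = 0.00138, limma). *Pdk2*, a kinase that inhibits pyruvate dehydrogenase, rose from 8.35 and 7.92 FPKM to 55.9 and 47.0 (log2 fold change 2.52, adjusted p = 6.27e-05, limma). Among 14 regulators of mitochondrial biogenesis 5 fell and 0 rose (median -0.34), led by *Polg*, the mitochondrial DNA polymerase (-1.59, adjusted p = 0.00312, limma). Among 6 genes of fission and fusion *Mfn1* fell (-0.74) and *Fis1* rose (0.52). With the median ratio scaling the lower calls were 4, 1, 4, 3 and 0 in these lists and the higher calls 1, 0, 5, 0 and 3.

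The promoters of the members were looked at for motifs, since this set is known for shared sites of a few factors. RefSeq windows (GRCm38.p6, 250 bases before to 50 after the start) were found for 69 members. The YY1 core AAGATGGC, on either strand, was in 11 of 69 windows (15.9%), against 5.51% of the windows of tested genes and 3.19% of all windows. The NRF1 core GCATGCG was also in 11 (15.9%), against 7.68% and 4.01%. The ETS core CCGGAAG was in 16 (23.2%, against 20.4% and 9.93%), the Sp1 box GGGCGGG in 24 (34.8%, against 53.8% and 27.9%), CCAAT in 31 (44.9%, against 43.8% and 41.1%) and TATAAA in 7 (10.1%, against 8.03% and 15.7%). No YY1 core overlapped an ETS core.

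In 9 members the YY1 core was read on the strand of the gene and began 22 to 38 bases after the start. The windows ended 50 bases after the start, so matches further on could not be seen. Its positions in other genes were not compared. On that strand 13.0% of the members had it within the bases after the start, against 2.55% of tested genes. The core holds ATG, the letters of a start codon. Whether these matches are the genes' own translation starts was not tested. Of the 11 members with a YY1 core, 7 belong to complex I and 4 to complex V. The following 30-base windows, 5′ to 3′ on the strand of the gene and with the core in capitals, show this for members that fell (*Ndufb8*, *Ndufa9* and *Ndufs4*), for the highest member of complex I and for a member of complex V. They lie at chr19:44555393-44555422 (minus strand), chr6:126849097-126849126 (minus), chr13:114388045-114388074 (minus), chr7:3617384-3617413 (plus) and chr5:145191500-145191529 (minus).
Ndufb8: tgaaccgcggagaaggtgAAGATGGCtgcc
Ndufa9: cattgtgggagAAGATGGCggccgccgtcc
Ndufs4: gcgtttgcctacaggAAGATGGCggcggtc
Ndufa3: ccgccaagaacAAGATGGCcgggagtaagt
Atp5j2: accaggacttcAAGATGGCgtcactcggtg

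The NRF1 core is shown for members with different changes, *Sdhb*, *Uqcrc1* and *Atp5g2*, which fell as deposited, and *Uqcr11*, the highest in change. In the last 3 of these the core reads on both strands at an offset of 1 base, and the capitals mark the whole run. The windows lie at chr4:140961205-140961234 (plus strand), chr9:108936668-108936697 (plus), chr15:102671070-102671099 (minus) and chr10:80406808-80406837 (minus).
Sdhb: gaagcccagtggGCATGCGccctacgggcc
Uqcrc1: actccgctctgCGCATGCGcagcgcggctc
Atp5g2: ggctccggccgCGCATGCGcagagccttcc
Uqcr11: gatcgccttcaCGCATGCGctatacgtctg

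Members that fell were found with and without the motifs. Of the tested members with a YY1 core 3 of 11 were lower at Day 3, with a NRF1 core 3 of 11 and with an ETS core 3 of 16, against 17 of 36 whose window held none of the 3, and 26.3% of all genes. The median log2 fold changes were -0.32, -0.28 and -0.25, and -0.39 without the motifs. A match is a description of the letters in these windows only.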

How the data were processed

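The mRNA of mouse OPCs was sequenced on 4 days of differentiation, with 2 libraries per day. From stranded libraries read from both ends, the authors computed FPKM per gene in OmicSoft ArrayStudio, which they deposited for each library. Their processing notes name the build mm10. The aligner, the gene model and the use of strand in counting are not given in the sources used here. The authors' DESeq2 test needs counts and was not used.

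The FPKM were tested as log2(FPKM + 1) with limma 3.58.1 in R 4.3.3 (eBayes with a trend, all 8 libraries, day as factor), over the 12208 genes that reached an FPKM of 1 in 2 or more libraries, with Benjamini-Hochberg adjustment. Fold changes are on that scale and understate those of low genes. Tables and plots used Python 3.11.15, numpy 2.4.6, pandas 2.3.3 and matplotlib 3.10.9. The main test had no term for the replicate number of the labels, which entered only in the alternative with a replicate block. Replicate differences correlated between all pairs of days (r = 0.16 to 0.29), so the main test left a weak pairing of the libraries out. Positions came from GENCODE M21 (GRCm38).

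The members, the lists and the tests were chosen with earlier results of these data known. Named genes were, per complex, the 4 largest changes called without overlap, the highest and lowest member, complex II, isoform families and members called from Day 1 to Day 2 or Day 2 to Day 3, and, of the other lists, the largest change each way. Other genes named were chosen after their values were seen. Results of some genes are not reported here.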

Additional observations from a re-analysis of the deposited data

How the results depend on the processing

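The members called lower from Day 0 to Day 3 numbered 27 in the FPKM as deposited, 15 with all libraries set to 1 sum, 3 with median ratio scaling, 15 without a trend in eBayes, and 8 to 26 with a library left out. Called higher were 1, 5 and 1 (same sum, median ratio, quantile normalization), against 1744, 2135 and 2070 of the 12208 genes, and otherwise 0. For Day 1 against Day 0 the 3 lower calls became 1 with the same sum (1.27%, against 6.42% of all genes). They became 0 with median ratio (against 6.32%) and with no trend (against 6.81%). For Day 2 against Day 1 the call became 0 with median ratio, no trend or only the days compared, where 0.844%, 0.319% and 0 of all genes were lower. For Day 3 against Day 2 a pseudocount of 0.1, median ratio, quantile normalization and the replicate block each gave 1 lower member, *Cox6b2* (1.27%). The shares of all genes lower were 0.0328%, 0.0573%, 0.0573% and 0.360%. The replicate block gave 28 lower members from Day 0 to Day 3 (35.4%, against 29.1% of all genes) and 4 from Day 0 to Day 1 (5.06%, against 9.01%).

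Medians moved with the scaling. With the same sum they were -0.20 (all members, beside -0.18 over all genes), -0.16 (complex II), -0.14 (complex IV) and -0.19 (complex V). With median ratio scaling they were -0.044 (all members), -0.11, -0.0033, -0.079, 0.021 and -0.033 (complexes I to V). With quantile normalization they were -0.25 (all members, beside -0.031 over all genes), -0.040 (complex IV) and -0.22 (complex V). Signs of single genes also turned. Median ratio scaling gave 0.10 for *Ndufa11*, 0.025 for *Sdhc*, 0.19 for *Uqcrh*, 0.019 for *Cox4i1*, 0.18 for *Atp5s*, 0.035 for *Sdha*, 0.089 for *Cox7a2*, 0.023 for *Cox7b* and 0.20 for *Cox8a*. The same sum gave 0.026 for *Uqcrh*, 0.068 for *Atp5s* and 0.042 for *Cox8a*. Quantile normalization gave 0.053 for *Ndufa11*, 0.012 for *Cox7c*, 0.37 for *Cox4i1*, 0.26 for *Atp5b*, 0.42 for *Atp5s* and 0.40 for *Cox8a*. With a library left out, *Atp5s* ran from -0.38 to 0.29, *Cox7a1* from -0.85 to 1.10 and *Cox8a* from -0.24 to 0.016. Over the 35 named genes tested and their 592 alternative values, 484 kept direction and side of the threshold, 82 lost the call, 3 gained it and 23 turned sign. The share of the FPKM sum kept its ratio without the 100 highest genes (0.906) and without the highest member of each complex (0.884). The setting without mitochondrially encoded genes was not run, since it would leave the table as it is. Causes were not tested.

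With 2 libraries a day and about 8.12 to 1795 fragments behind each better expressed member, differences of the size of the SE were not detectable, and members under about 5 FPKM rested on a few fragments.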
